A study of Homo sapiens with 8 samples.

Results

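TWIST1, VIM, JUNB and SOX9 are genes of the mesenchymal state of neuroblastoma. All positions of these 4 genes in the deposited table of m1A positions were taken by gene symbol, which gave 9 of 9962 positions and 4 of 4945 listed genes. Neuroblastoma cells transfected with a small interfering RNA against TRMT6 (siTRMT6) were compared with control cells, 2 replicates each, as fragmented polyadenylated RNA precipitated with an antibody against the modified base m1A. The labels give 8 samples in 4 groups, siTRMT6 m1A, siTRMT6 input, control m1A and control input, and no source says whether replicates were separate cultures. P-values of tests between libraries may therefore reflect technical spread alone. What the control cells received is not given beyond the word control.

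Neuroblastoma cells occur in an adrenergic state, close to the noradrenergic neurons of the sympathetic lineage, and in a mesenchymal state, which resembles neural crest-derived mesenchyme and is more motile. TWIST1 is a basic helix-loop-helix transcription factor that drives epithelial-mesenchymal transition, SOX9 is an HMG-box factor of neural crest and cartilage, JUNB is a subunit of the AP-1 transcription factor, and VIM encodes vimentin, the intermediate filament of mesenchymal cells. TRMT6 is the partner of the catalytic subunit TRMT61A in the enzyme that methylates adenosine to m1A in the T loop of tRNA and in similar stems of other RNAs. The titles call the cells SK-N-BE, whereas the source and cell line fields call them SK-N-AS. SK-N-BE is known as an adrenergic line with amplified MYCN, and SK-N-AS as a line without that amplification.

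The 4 genes held 118 reads, 54 in the siTRMT6 libraries and 64 in the controls, and none of their 9 positions had reads in more than 1 library. The count columns carry a condition and a number but not the words m1A or input, and were taken as m1A reads because the table lists m1A positions. The libraries held 40771 (siTRMT6 1), 13812 (siTRMT6 2), 8655 (control 1) and 46007 (control 2) reads at the positions of the table, and the median count of a position read in a library was 8 or 9. Sequencing depth is not known from these totals. Reads in 1 library only were found at 98.6% of all positions. A position listed for 1 library alone held at least 6 reads in a siTRMT6 library and at least 5 in a control library. At positions with reads in more than 1 library, counts as low as 2 (siTRMT6 2) were listed. Whether a deposited 0 stands for no reads, for a few reads or for no call is not given, so no upper limit is drawn from it. TRMT6 had no listed position, and the silencing could not be followed in these reads.

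TWIST1 had 2 positions on the minus strand of chromosome 7 (hg38), both in the 5' UTR of transcript ENST00000242261.5. At chr7:19117491, base 182 of the transcript, siTRMT6 1 had 21 reads and siTRMT6 2, control 1 and control 2 had 0. At chr7:19117465, base 208, siTRMT6 1 and siTRMT6 2 had 0 reads, control 1 had 16 and control 2 had 0. The siTRMT6 position and the control position thus lay 26 nt apart in the same untranslated leader, and neither base was shared.

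These were high counts for their libraries. The 21 reads exceeded the counts at 93.1% of the 3607 positions read in siTRMT6 1, and the 16 reads exceeded those at 85.2% of the 819 positions read in control 1. Only 13.5% of all positions were annotated to a 5' UTR, and 224 of the 925 genes with such a position had 2 or more. Of all 5' UTR positions, 96.0% had fewer than 21 reads and 90.5% fewer than 16, against a median of 8 reads.

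VIM had 3 positions on the plus strand of chromosome 10, all in coding sequence. At chr10:17229964, base 687 of ENST00000224237.6, siTRMT6 2 had 11 reads and siTRMT6 1, control 1 and control 2 had 0. At chr10:17235285, base 1270, control 1 had 9 reads and both siTRMT6 libraries and control 2 had 0. At chr10:17235329, base 1314, control 2 had 12 reads and both siTRMT6 libraries and control 1 had 0. VIM was the member in which both control replicates had reads, and their bases were 44 nt apart. The siTRMT6 base lay 583 nt upstream of the nearer control base along the mRNA, with a further 4738 nt of spliced-out sequence between them in the genome.

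The siTRMT6 base of VIM carries a second annotation. It is also listed as base 22 of VIM-AS1, a non-coding RNA on the opposite strand, one of 288 positions (2.89%) annotated on both strands. Whether the library kept strand is not given in the sources used here, so reads of VIM and VIM-AS1 cannot be told apart at this base. Without it, VIM had 0 siTRMT6 reads and 21 control reads. The control bases of VIM and all bases of TWIST1, JUNB and SOX9 were covered by no other RefSeq gene, and no other gene had a listed position within 10000 nt of the TWIST1, JUNB or SOX9 bases.

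JUNB had 2 positions on the plus strand of chromosome 19, in transcript ENST00000302754.5. At chr19:12792563, base 1068 in coding sequence, siTRMT6 2 had 9 reads and siTRMT6 1, control 1 and control 2 had 0. At chr19:12792853, base 1358 in the 3' UTR, control 2 had 17 reads and both siTRMT6 libraries and control 1 had 0. The bases lay 290 nt apart with no intron between them, and JUNB was the member whose control and siTRMT6 reads fell in different annotated regions of the transcript. The 17 reads exceeded the counts at 86.5% of the 4269 positions of control 2, while the 9 reads exceeded those at 55.7% of the 1414 positions of siTRMT6 2.

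SOX9 had 2 positions on the plus strand of chromosome 17, both in the coding sequence of ENST00000245479.2. At chr17:72122864, base 949, siTRMT6 1 had 13 reads and siTRMT6 2, control 1 and control 2 had 0. At chr17:72124335, base 1850, control 2 had 10 reads and both siTRMT6 libraries and control 1 had 0. The bases were 901 nt apart in the mRNA and 1471 nt apart in the genome. Both counts were closer to the middle of their libraries, above 71.4% of the positions of siTRMT6 1 and above 55.1% of those of control 2.

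**Figure D1:**
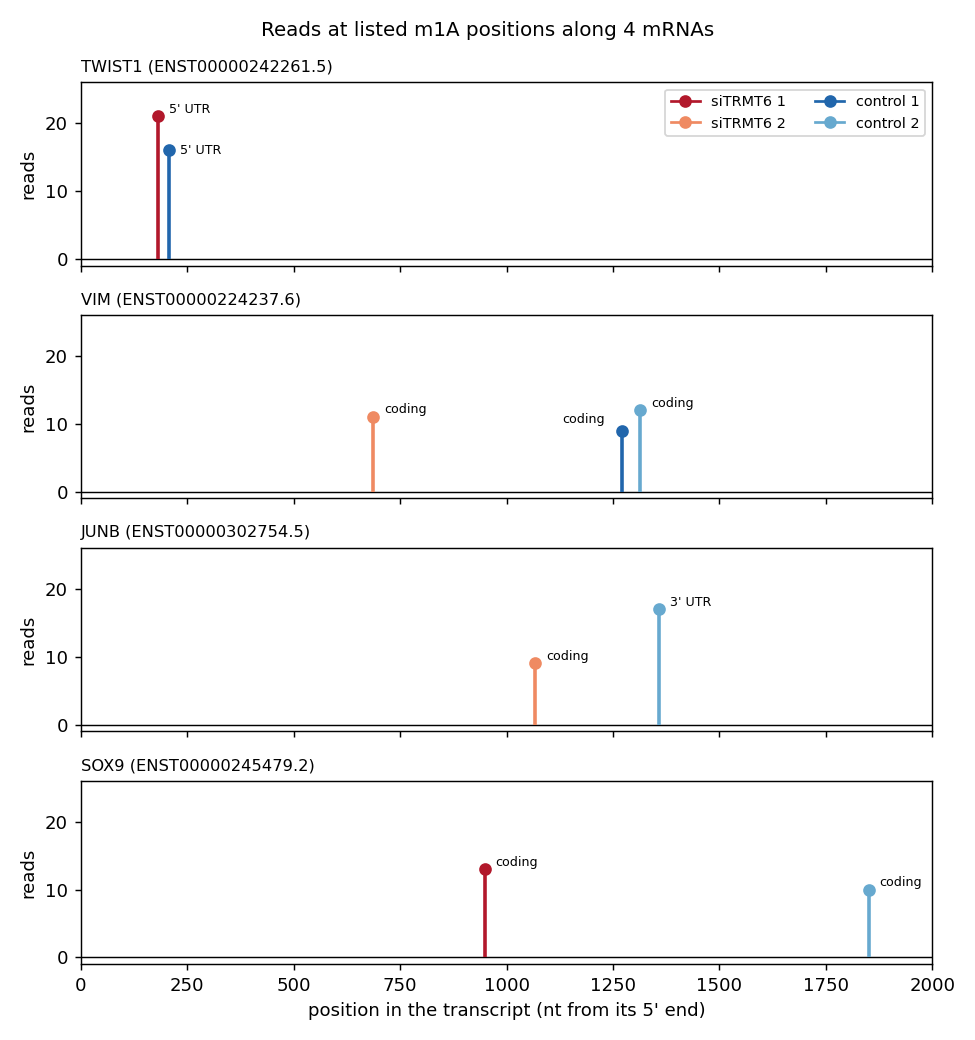
Reads at each listed m1A position (vertical axis) against its place in the transcript in nt from the 5' end (horizontal axis) for TWIST1, VIM, JUNB and SOX9, coloured by library. The TWIST1 bases stand 26 nt apart in the 5' UTR, while the siTRMT6 and control bases of VIM, JUNB and SOX9 are 290 nt or more apart.

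The 5 control positions and the 4 siTRMT6 positions of these genes thus never coincided. The largest p-value the authors deposited was 0.0478, so bases with similar reads in both conditions may be missing from the table. Whether these genes had such shared bases cannot be told. Spacing of this kind between control and siTRMT6 positions was common in the table. Of 1188 genes with 2 positions, 724 (60.9%) had 1 in each condition, and 718 of these pairs lay on a shared transcript with a median distance of 69 nt (quartiles 19 and 538). Of the 718 pairs, 30.5% were no farther apart than that of TWIST1, 65.7% no farther than that of JUNB and 83.01% no farther than that of SOX9. SOX9 is thus in the wide part of this distribution and TWIST1 below its median. Reads in both conditions were found for all 4 members, against 39.1% of all listed genes, 2424 of which had 1 position only. Of the 632 genes with 3 positions, the number VIM has, 84.5% had reads in both conditions. The members were chosen with these reads known, so their share is a description.

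The authors' deposited table gives every member position a large fold change, since each base had reads in 1 condition only. For TWIST1 the authors' deposited table lists a log2 fold change of siTRMT6 over control of 5.21 (adjusted p = 6.88e-05) at chr7:19117491 and of -5.18 (adjusted p = 0.000202) at chr7:19117465. For VIM the authors' deposited table lists 4.27 at chr10:17229964, -4.35 at chr10:17235285 and -4.77 at chr10:17235329. For JUNB the authors' deposited table lists 3.99 at chr19:12792563 and -5.27 at chr19:12792853, and for SOX9 4.52 at chr17:72122864 and -4.51 at chr17:72124335. Each of the 4 mRNAs therefore holds a position listed as higher and a position listed as lower after silencing. The authors' adjusted p-values for these 9 positions ran from 6.88e-05 to 0.00960, and none of the 126 distinct pairs of summed siTRMT6 and control reads in the table had more than 1 p-value, whatever the split between replicates. The largest p-value deposited was 0.0478, so the table lists only positions that had passed a test.

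Positions of a gene were joined where they lay within 200 nt of the next, which gave 8488 regions over all genes. TWIST1 formed 1 region of 27 nt with 21 reads in siTRMT6 1 and 16 in control 1. It was 1 of 1470 regions (17.3%) with reads in both conditions and 1 of 234 with reads in both siTRMT6 1 and control 1. Its 37 reads ranked 231 among the 1470 regions, tied with 16 others, where the median was 22 reads. VIM formed 2 regions: 1 of 45 nt with 9 reads in control 1 and 12 in control 2, and the single siTRMT6 base with 11 reads. The VIM control region was 1 of 158 that held both controls and no siTRMT6 reads, and 314 regions held both siTRMT6 libraries and no control reads. JUNB and SOX9 stayed as 2 single-base regions each, 1 per condition. Joined within 500 nt, the JUNB bases became 1 region with 9 reads in siTRMT6 2 and 17 in control 2, and the regions of the other members were unchanged within 100 and 500 nt.

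Summed per gene, TWIST1 had 21 reads in the siTRMT6 libraries and 16 in the controls, and SOX9 had 13 and 10. VIM had 11 siTRMT6 reads and 21 control reads, and JUNB had 9 and 17. With each sum divided by the listed reads of its condition, the log2 of siTRMT6 over control was 0.39 for TWIST1 with a 95% exact counting interval from -0.61 to 1.43. The same log2 was -0.93 for VIM (-2.13 to 0.19), -0.92 for JUNB (-2.26 to 0.33) and 0.38 for SOX9 (-0.92 to 1.73). All 4 intervals include 0. They cover counting error only, and reads without molecular identifiers are not independent molecules. At bases shared by replicates, 70 in siTRMT6 and 63 in control, the chi-square per degree of freedom was 0.14 and 0.10. Counts there differed less than counting error gives, so the intervals may not describe the spread of these values. Bases with similar reads in both conditions may also be missing from the sums.

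The sign of these ratios depended on how libraries were scaled for TWIST1 and JUNB. Listed reads differ 2.95-fold between the siTRMT6 libraries and 5.32-fold between the control libraries. A member's reads sit in 1 library of a condition, both controls of VIM apart. Control 1 had 819 positions with a median of 8 reads, and control 2 had 4269 with a median of 9. The totals thus followed the number of listed positions, and division by listed reads is not a scaling to sequencing depth. On the scale of RPM, reads per 1000000 listed reads of the library, TWIST1 had 515 RPM in siTRMT6 1 and 0 in siTRMT6 2, against 1849 RPM in control 1 and 0 in control 2. Its share of listed reads was 0.0515% (exact 95% interval 0.0319 to 0.0787) in siTRMT6 1 and 0.185% (0.106 to 0.300) in control 1, the library with the fewest listed reads. Averaged over the libraries of a condition in RPM, the log2 for TWIST1 was -1.84, of opposite sign to that of the summed reads.

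JUNB turned the other way. It had 0 RPM in siTRMT6 1 and 652 RPM in siTRMT6 2, against 0 in control 1 and 370 RPM in control 2, and the averaged log2 was 0.82. VIM had 0 and 796 RPM in siTRMT6 1 and 2, against 1040 and 261 RPM in control 1 and 2, with an averaged log2 of -0.71. SOX9 had 319 and 0 RPM in siTRMT6 1 and 2, against 0 and 217 RPM in control 1 and 2, with an averaged log2 of 0.55. In the deposited values the conditions overlapped for all 4 genes. For TWIST1, JUNB and SOX9 this rests on a deposited 0 in a replicate of each condition, which may stand for no call. For VIM the siTRMT6 2 value lay between those of the controls. Over the 1933 genes with reads in both conditions, the median log2 was -0.07 for summed reads and 0.09 for the average.

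**Figure D2:**
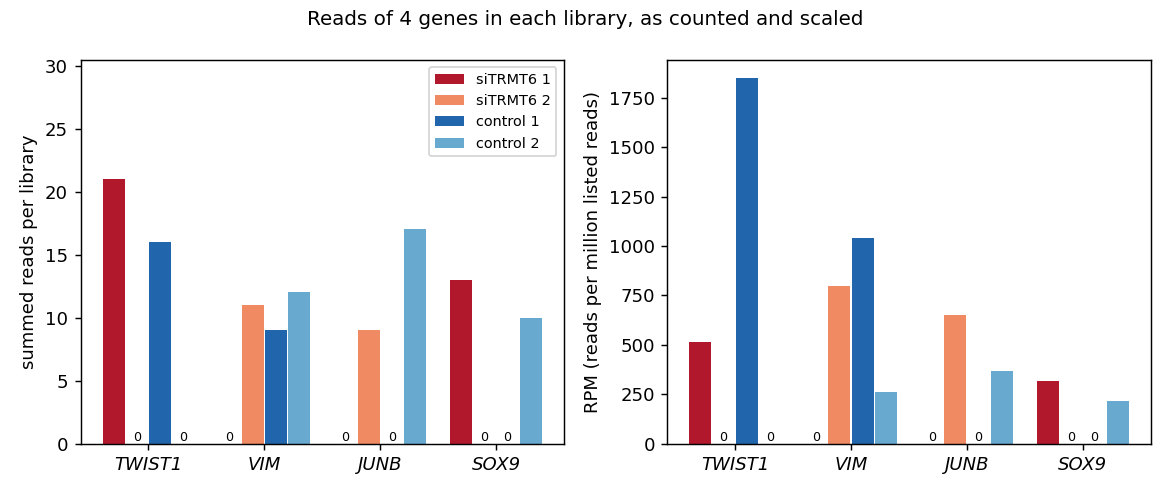
Reads of TWIST1, VIM, JUNB and SOX9 in each library, as summed reads (left) and as RPM (right); a 0 marks a library with no listed reads. TWIST1 has 21 reads in siTRMT6 1 and 16 in control 1, but 515 and 1849 RPM on the right.

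The quasi-likelihood test of edgeR on all genes, with reads summed per gene, tested 975 genes after its filter on low counts and called 0 (0%) at an adjusted p of 0.05, and 126 genes had an unadjusted p under that value. TWIST1, VIM and JUNB passed the filter and SOX9 did not. The edgeR log2 of siTRMT6 over control was -0.28 ± 3.03 (SE) for TWIST1, -0.30 ± 2.46 for VIM and 0.08 ± 2.82 for JUNB, each with an edgeR adjusted p of 0.9995. Fitted without the filter, SOX9 had 0.39 ± 4.03 in edgeR (adjusted p = 0.999). The standard errors, 2.46 to 4.03 on the log2 scale, are far larger than the differences, so none was larger than the spread between replicates. DESeq2 called 1 of the 975 genes, which was no member.

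At the level of regions, edgeR tested 525 and called 0 (0%), and 131 had an unadjusted p under 0.05. The 1 region called by DESeq2 belonged to no member. The TWIST1 region had a log2 of 0.19 ± 3.49 (SE, edgeR adjusted p = 0.999), and the regions of VIM, JUNB and SOX9 did not pass the filter. At single positions edgeR tested 34 and called 22 (64.7%), 13 higher (38.2%) and 9 lower (26.5%) in siTRMT6, and no member position was among the 34. Every listed position already had an authors' p-value of 0.0478 or less between the same conditions. The share of positions called is therefore no evidence of change. The same holds for the shares of positions, regions or genes at an unadjusted edgeR p under 0.05. With listed reads as library sizes and no TMM the calls were 13 higher and 1 lower. No call was left in DESeq2 (14 at an unadjusted p under 0.05), or in edgeR without the filter, with the replicate number as a block, or without any 1 of the 4 libraries. Without the filter each of the 9 member positions had an edgeR adjusted p of 0.519.

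**Figure D3:**
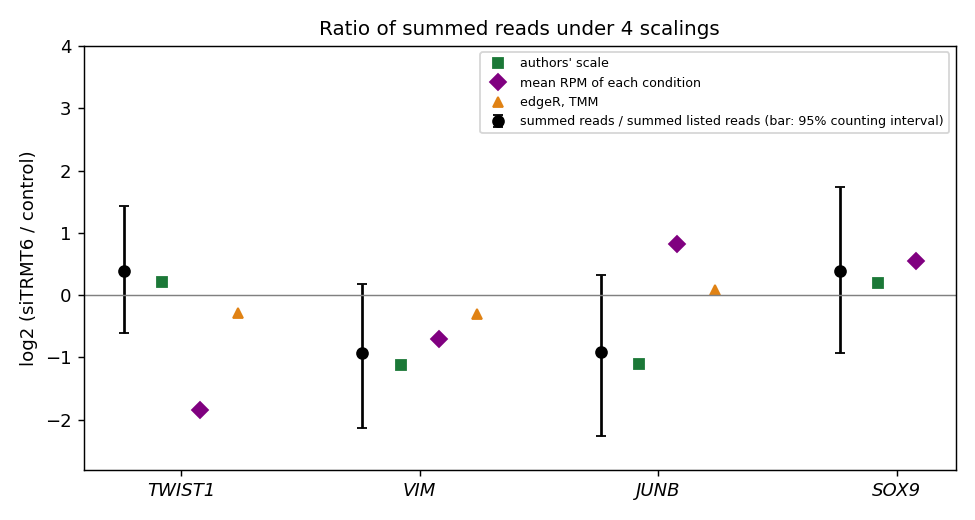
Log2 of siTRMT6 over control reads (vertical axis) for TWIST1, VIM, JUNB and SOX9 under 4 scalings: summed reads over summed listed reads with a 95% counting interval, the authors' scale, the mean RPM of each condition, and edgeR with TMM scaling (SOX9 was not tested there). The points of TWIST1 and JUNB lie on both sides of 0, and every counting interval crosses 0.

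In summed reads over the 4 libraries, TWIST1 ranked 797 among the 4945 genes with 37 reads, tied with 33 others. VIM ranked 988 with 32 reads (45 tied), JUNB 1273 with 26 (72 tied) and SOX9 1475 with 23 (72 tied). The median gene had 14 reads at 2 positions, and the members had more reads than 83.2% (TWIST1), 79.1% (VIM), 72.8% (JUNB) and 68.7% (SOX9) of the genes. With 3 positions VIM was the member with the most bases, but by its highest single base, 12 reads, it ranked 1430, below TWIST1 (316), JUNB (631) and SOX9 (1246). By mean RPM over the 4 libraries, TWIST1 ranked 345, VIM 430, JUNB 1200 and SOX9 2153, so the order of the members was the same as by sums. Transcript length and the level of each mRNA were not taken into account, since input values are not used here.

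**Figure D4:**
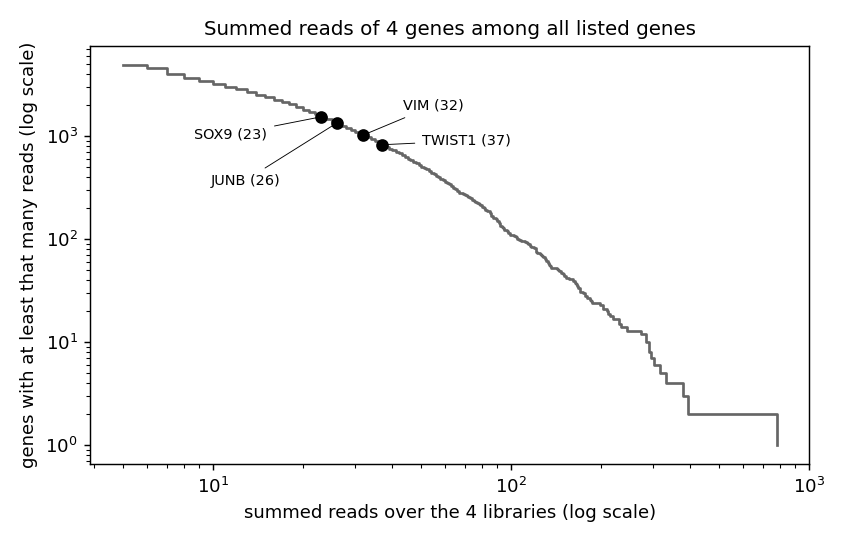
Number of genes with at least a given number of summed reads over the 4 libraries (vertical axis, log scale) against that number (horizontal axis, log scale), with TWIST1 (37), VIM (32), JUNB (26) and SOX9 (23) marked. The 4 members lie next to each other above the median gene (14 reads) and far below the genes with the most reads.

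The genes with the read pattern most like each member were found as those with reads in the same libraries and the smallest sum of absolute differences over the 4 libraries. For SOX9, 886 other genes had reads in siTRMT6 1 and control 2 only, and WDR81 had the same counts, 13 and 10. For JUNB, 169 others had reads in siTRMT6 2 and control 2 only, and CEP164 and RP11-343C2.11 had the same counts, 9 and 17. For TWIST1, 77 others had reads in siTRMT6 1 and control 1 only, and TOB2 was nearest with 21 and 11 reads, a difference of 5. For VIM, 52 others had reads in siTRMT6 2 and both controls only, and UBALD2 was nearest with 10 reads in each of these libraries, a difference of 4. SOX9 had its reads in the libraries with the most listed reads of each condition, and its pattern was the most frequent of the 4.

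The other genes of the mesenchymal state were looked up in a list of 39 that includes the 4 members. Of the 35 other genes, 9 (25.7%) had a listed position, near the 20.7% of 20056 RefSeq protein-coding symbols. With the members, which were chosen with their positions known, the count was 13 of 39 (33.3%). The 24 positions of these 13 genes were divided into 10 with siTRMT6 reads, 14 with control reads and none with both. AEBP1, a transcriptional repressor, was the listed gene with the most reads (40): 29 in siTRMT6 1 over 2 positions and 11 in control 2. IRF3, a factor of the interferon response, had 8 reads in siTRMT6 2 and 15 in control 2, 106 nt apart in its 5' UTR as in TWIST1. FOSL2, an AP-1 partner of JUNB, had 8 reads in siTRMT6 1 and 8 in control 2, and CBFB, the partner of RUNX factors, had 9 and 6 in these libraries. ID1, an inhibitor of helix-loop-helix factors such as TWIST1, had reads in the controls only, 6 in control 1 and 7 in control 2 at bases 3 nt apart in its 3' UTR. JUN had 8 reads in siTRMT6 2, and IFI16, MAML2 and SMAD3 had 5 each in control 2. The edgeR test of genes covered 3 of the 39, which were TWIST1, VIM and JUNB, and called 0, with 0 at an unadjusted p under 0.05. Their median edgeR log2 was -0.28, the value of TWIST1, against 0.25 over all 975 genes tested. No other gene of the list was tested, so this median does not describe the list.

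Among relatives of the members, 6 of 11 factors of epithelial-mesenchymal transition (54.5%) had a position, 5 of them other than TWIST1. The share over all RefSeq protein-coding symbols was 20.7%. Each list of relatives counts a member that was chosen with its position known. TCF12, a helix-loop-helix partner of TWIST1, had more reads than TWIST1 (46), 24 in siTRMT6 1 and 22 in control 2 over 6 positions. ZEB2 had 18 siTRMT6 reads and 10 control reads, ZEB1 had 22 siTRMT6 reads and no control reads, and SNAI1 had 7 siTRMT6 reads and no control reads. Of 22 AP-1 genes, 7 (31.8%) had a position, 6 of them other than JUNB. JUNB had the second most reads after ATF4, which had 27 in control 2. JUND, which like JUNB is a Jun subunit, had 22 reads in siTRMT6 2 at a coding base and a 3' UTR base, and none in the controls.

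Of 20 SOX genes, 5 (25%) had a position, 4 of them other than SOX9. This share was near the 20.7% over all RefSeq protein-coding symbols. Among the 5, 3 had more reads than SOX9. SOX4 had 94 reads and SOX12 79, and SOX11, a factor of the adrenergic state, had 28. Of 16 intermediate filament genes, 10 (62.5%) had a position, 9 of them other than VIM. Of the 10, only LMNB1 (27 reads) had fewer reads than VIM. The neuronal filament genes PRPH and NEFM had 162 and 125 reads, NES, the filament of neural progenitors, had 118, and LMNA had 115. None of these lists had a gene called by edgeR (2 epithelial-mesenchymal, 1 AP-1, 2 SOX and 9 filament genes tested).

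The adrenergic list was more often listed than the mesenchymal one. The mesenchymal list held 13 of 39 genes (33.3%) with 248 reads, and the adrenergic list 21 of 30 genes (70.0%) with 1558. Without the 4 members, the mesenchymal list held 9 of 35 genes (25.7%) with 130 reads. The median listed gene had 13 reads in the mesenchymal list without the members (16 with them) and 63 in the adrenergic list, against 14 over all genes. The adrenergic list, too, was written with results of these data known. The mesenchymal list took 0.196% of the listed reads in siTRMT6 1, 0.261% in siTRMT6 2, 0.358% in control 1 and 0.220% in control 2. The adrenergic list took 1.29%, 2.38%, 1.94% and 1.16% in the same libraries, more than the mesenchymal list in each of the 4. MYCN had 210 reads, 48 in siTRMT6 1, 59 in siTRMT6 2, 50 in control 1 and 53 in control 2, and ranked 20 of all genes. Its siTRMT6 2 reads were 30 at base 503 and 29 at base 1576. How reads were counted at each base is not given, so whether a gene's sum counts a read more than once cannot be told. Reads at listed positions depend on mRNA level, m1A and the filter on p-values together, and their parts were not tested, so these values do not settle which of the named lines was used. None of the 12 markers of other cell types (immune, epithelial, endothelial, liver and glial genes) had a listed position.

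**Figure D5:**
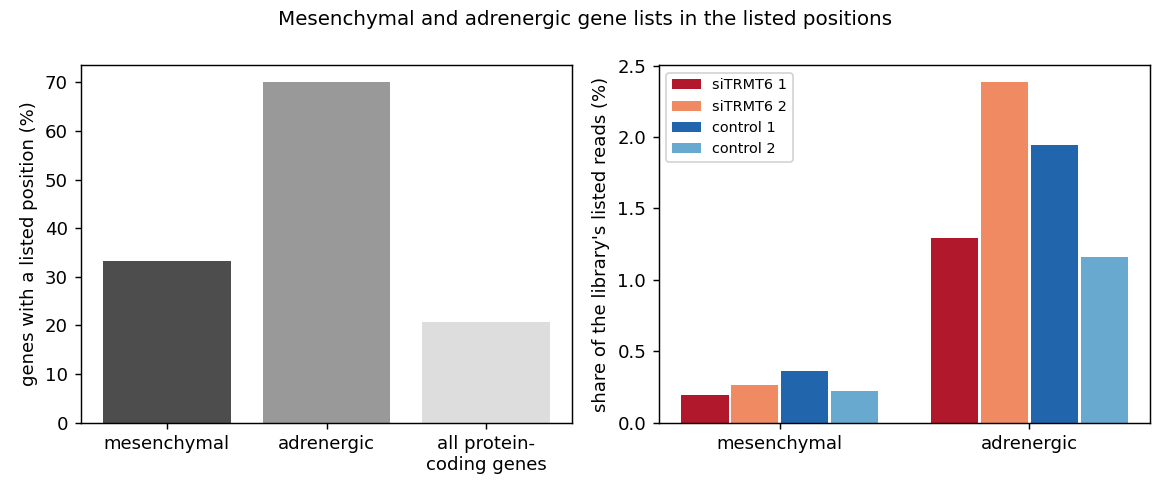
Left, percentage of genes with a listed position in the mesenchymal list (39 genes, the 4 members included), the adrenergic list (30 genes) and all RefSeq protein-coding symbols; right, share of each library's listed reads held by the 2 lists, in percent. The adrenergic bars are higher than the mesenchymal bars in both panels and in all 4 libraries.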

How the data were processed

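Per the submitters' processing notes, FastQC 0.11.3, STAR and build hg38 were used. How positions were called, how reads were counted and which test gave the p-values is not given in the sources used here. The deposited table gives whole-number counts of reads per position and library, and the authors' log2 fold change, p-value and adjusted p-value. The authors' log2 equals the log2 of the ratio of pooled siTRMT6 to pooled control counts, a sum of 0 set to 0.5, after division by 1.1367, at all 9962 positions within 0.001. Positions are listed counting from 0, as 10 of 10 mitochondrial annotation lines showed against RefSeq, and are printed counting from 1.

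Lines were reduced to unique positions, counts summed per gene and per region (200 nt), and ranked. Tests used edgeR 4.0.16 in R 4.3.3 (TMM, filterByExpr with a minimum count of 10, quasi-likelihood test, Benjamini-Hochberg adjustment at 0.05), fitted on the whole table without a replicate block; library sizes were the listed reads. DESeq2 1.42.0 was an alternative. The standard error is the log2 divided by the root of the F statistic. Replicates of a group shared few bases, 70 (siTRMT6) and 63 (control), so their lists of bases were not copies of each other. Near bases do not count as shared, such as MYCN base 1054 with 50 reads in control 1 and base 1057 with 53 in control 2. Shared bases therefore cannot tell whether libraries came from the same material. Members and lists were chosen with earlier results of these data known. Named genes are the members, genes of the lists with a position, and the nearest genes by read pattern.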

Additional observations from a re-analysis of the deposited data

How the results depend on the processing

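The count of 22 called positions fell to 0 without the filter on low counts, 0 with DESeq2, 14 (13 higher, 1 lower) with listed reads as library sizes and no TMM, and 0 with each library left out (0 to 0), and to 0 with the replicate number as a block; the cause was not tested. For regions and genes the edgeR count of 0 held in every alternative run, the replicate block and each library left out included, while DESeq2 called 1 region and 1 gene. Whether the replicate numbers pair the samples is not given, and the labels name no shared batch. Deviations from the group means correlated at -0.09 over 975 genes. This value cannot decide pairing, since 98.6% of all positions had reads in 1 library only. Among the ratios of summed reads, averaging RPM over libraries, an alternative chosen after seeing the data, gave -1.84 for TWIST1 and 0.82 for JUNB, each of opposite sign to its main value and outside its counting interval. With libraries left out, the ratio ran from -2.26 (without control 2) to 0.82 for TWIST1, from -2.37 (without control 2) to 1.05 (without siTRMT6 1) for VIM, from -1.16 to 1.07 (without siTRMT6 1) for JUNB and from 0.13 to 0.80 for SOX9. The edgeR log2 ran from -6.09 (without siTRMT6 1) to 6.25 (without control 1) for TWIST1, from -6.50 (without siTRMT6 2) to 0.62 for VIM and from -5.88 (without siTRMT6 2) to 0.68 for JUNB, with no edgeR adjusted p under 0.810. Without the only library of a condition that holds a member's reads, no ratio could be had. For SOX9 only control 1 and siTRMT6 2, with 0 SOX9 reads each, could be left out, so only the divisor of its ratio changed. The edgeR log2 of SOX9 was -0.46 without control 1 and 1.46 without siTRMT6 2. No value can separate 0 reads from no call, and with 9 to 21 reads per position the depth at listed positions limits every ratio.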
